A study of Homo sapiens with 4 samples.

Results

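The genes examined were 8 that encode alpha subunits of heterotrimeric G proteins other than Gα12 and Gα13, namely *GNAI1*, *GNAI2*, *GNAI3* and *GNAZ* of the Gi class, *GNAQ*, *GNA11* and *GNA15* of the Gq class, and *GNAS* of the Gs class. They were chosen by symbol from the 25066 genes measured, and all 8 were found. The measurements were RNA sequencing of 4 libraries from NUDUL1, a human cell line of diffuse large B cell lymphoma (DLBCL) of the germinal center type. The cells came from a single-cell clone with doxycycline-inducible Cas9 and had been transduced with the receptor Tbxa2r, which couples to Gα13. Cells of 2 libraries carried a control sgRNA and those of the other 2 a *GNA13* sgRNA, with 1 sgRNA per genotype. All 4 libraries came from cells given U46619, a stable analog of the Tbxa2r ligand thromboxane A2, for 24 h. The paper states a dose of 10 nM for its survival assays and immunoblots and none in its methods for RNA sequencing. Untreated cells were not among the 4 libraries, so the comparison was between genotypes under the ligand. No label says that the libraries came from separate cultures, so p values measure the spread between these libraries, which may be technical.

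A G alpha subunit holds GDP at rest, exchanges it for GTP when an activated receptor acts on it, and then parts from its Gβγ partner so that both can act on effectors. Gαs stimulates adenylyl cyclases, the Gi class inhibits several of them, and the Gq class activates phospholipase Cβ. In lymphocytes, Gαi2 is the main transducer of chemokine receptors, and Gα15 is a Gq class subunit found mostly in hematopoietic cells that accepts signals from receptors of many classes. The receptor contacts the last residues of the alpha subunit.

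The ends of the 8 coding sequences are shown because the receptor contacts this stretch. Each is the last 11 codons and the stop codon of the canonical transcript in GENCODE (GRCh37), with the fourth codon from the end in capitals.
GNAI1: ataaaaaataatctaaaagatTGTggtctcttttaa
GNAI2: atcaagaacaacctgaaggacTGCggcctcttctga
GNAI3: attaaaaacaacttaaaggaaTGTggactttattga
GNAZ: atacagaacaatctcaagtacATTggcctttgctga
GNAQ: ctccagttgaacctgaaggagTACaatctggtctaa
GNA11: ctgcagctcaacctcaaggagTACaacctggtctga
GNA15: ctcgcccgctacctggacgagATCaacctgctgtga
GNAS: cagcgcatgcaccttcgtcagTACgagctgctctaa
The capitals code for cysteine in *GNAI1*, *GNAI2* and *GNAI3*, the residue that pertussis toxin modifies. They code for isoleucine in *GNAZ* and *GNA15* and for tyrosine in *GNAQ*, *GNA11* and *GNAS*, none of which the toxin modifies. Without the stop codon, *GNAQ* and *GNA11* were identical at 28 of 33 bases, whereas *GNA11* and *GNA15* of the same class were identical at 20 of 33, fewer than the 21 shared by *GNA11* and *GNAI2* of different classes. Each end lay in coding exon sequence on the strand of its gene, at chr7:79846774-79846809 (+) for *GNAI1*, chr3:50295087-50295122 (+) for *GNAI2*, chr1:110134820-110134855 (+) for *GNAI3* and chr22:23465583-23465618 (+) for *GNAZ*. Those of the others lay at chr9:80336239-80336274 (-) for *GNAQ*, chr19:3121142-3121177 (+) for *GNA11*, chr19:3162982-3163017 (+) for *GNA15* and chr20:57485849-57485884 (+) for *GNAS*. The longest run shared by the coding sequences of any pair of members was 35 bases, between *GNAI3* and *GNAS*.

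Totals of mapped reads lay between 29209544 and 31537955 per library. *GNA13* mRNA was higher in the libraries labelled GNA13-deficient, at log2 values of 13.10 and 13.11 against 12.46 and 12.45, so the genotypes are named as labelled throughout and each direction rests on the labels. Of 6 B cell markers, all had log2 values above 10 in every library. Of 5 germinal center B cell markers, *SERPINA9* was listed at 0 in every library, and under the GNA13-deficient label *BCL6* fell by 2.49 and *LMO2* by 3.70 on the log2 scale. *MME*, with log2 values of 13.99 to 14.08, and *MYBL1*, with a difference of 0.37, were not called. The 4 T cell markers found had at most 1 read in any library.

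The deposited values are log2 of normalized reads per gene, so a difference of 1 is a 2-fold change. Among the members, *GNA15* fell steeply, *GNA11* rose, *GNAI2*, *GNAI3*, *GNAS* and *GNAZ* did not pass the test, and *GNAI1* and *GNAQ* were listed at 0. The test was a linear model in limma on the log2 values of the 16945 genes above 0 in at least 2 libraries, with Benjamini-Hochberg adjustment over all of them and a threshold of 0.05. It tested 6 of the 8 members and called 2 of them. Over all genes it called 29.7%, of which 13.1% of the genes tested were higher and 16.6% lower under the GNA13-deficient label, so the count among the members was close to the background. The 6 members had a median log2 difference of 0.17, against -0.03 for all genes tested.

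**Figure D1:**
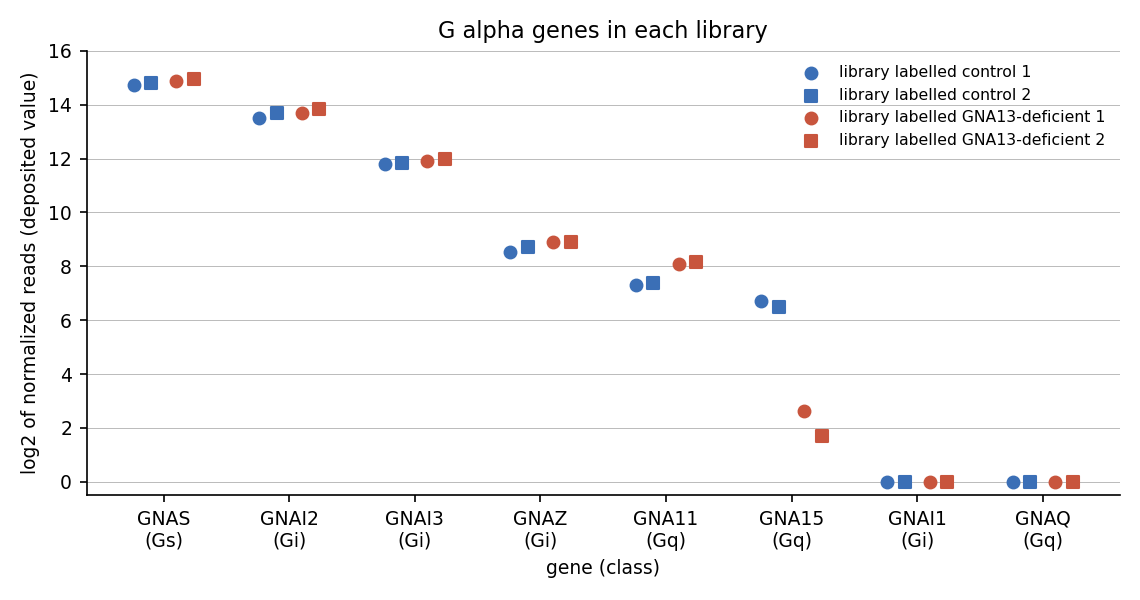
Deposited log2 values of the 8 G alpha genes (x axis, with class) in each of the 4 libraries (one point each, blue for control and red for GNA13-deficient). *GNA15* drops from above 6 to below 3, *GNA11* lies higher in red than in blue, the other 4 with reads change little, and *GNAI1* and *GNAQ* are at 0 in all 4 libraries.

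*GNA15* encodes Gα15 and lies at chr19:3136031-3163747 on the plus strand (GRCh37). Its log2 values were 6.71 and 6.48 under the control label and 2.62 and 1.69 under the GNA13-deficient label. Both of the latter lay below both of the former, with a gap of 3.86. The difference was -4.44 (standard error 0.43, adjusted p = 0.00332 from limma, n = 2 per genotype), and 99.66% of the genes tested had a smaller absolute difference. Behind these values stood 103 and 91 reads under the control label and 6 and 3 reads under the GNA13-deficient label, recovered from the steps of the deposited values. In normalized reads the control level was 20.5 times the other, with an exact 95% binomial interval of 10.6 to 45.6 that covers counting error only. The second library labelled GNA13-deficient was at the floor of 3 reads that a count of 0 allows, and without it the log2 difference was -3.98. With no filter on low values the adjusted p was 0.0561, and with any one library left out it lay between 0.0708 and 0.0881.

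In bulk RNA, fewer cells that express a gene and less RNA per cell cannot be told apart. Of a list of 5 myeloid markers, 4 were tested and 2 were called lower, *ITGAM* and *LYZ*, against 16.6% of all genes tested. *CSF1R* and *CD14* were tested and not called, and *FCGR3A* was listed at 0 in every library. *ITGAM* went from 6.99 and 7.16 to 1.62 and 2.11, and *LYZ* from 6.40 and 6.35 to 3.50 and 4.19. *CD14*, a defining monocyte marker, had a log2 value of at most 0.98. The summed normalized reads of the list were 228 and 242 under the control label and 27.7 and 26.9 under the GNA13-deficient label. The part of such markers in the fall of *GNA15* was not tested.

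*GNA11* encodes Gα11, the near relative of Gαq, and lies at chr19:3094360-3123997 on the plus strand. Its log2 values were 7.32 and 7.39 under the control label and 8.07 and 8.15 under the GNA13-deficient label, so that both of the latter lay above both of the former. The rise was 0.76 (standard error 0.12, 95% interval 0.45 to 1.06, adjusted p = 0.0106 from limma), a 1.69-fold change. Reads numbered 157 and 170 against 262 and 264, and their counting interval for the ratio was 1.47 to 1.94. Of the genes tested, 75.9% had a smaller absolute difference, so the rise of *GNA11* was within the common range of this comparison. Its sign held under every scaling tried, and of these scalings its call did not hold relative to *GAPDH*. With the filter at the median it was not tested, since it lies below that median. With any one library left out, which leaves 1 library in a genotype, the rise lay between 0.72 and 0.80.

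*GNAQ*, which encodes Gαq itself and lies at chr9:80331013-80646727 on the minus strand, was listed at 0 in all 4 libraries. A listed 0 was not taken as absence, since the ubiquitously used gene *UBB* was also listed at 0 in all 4. At a count of 0, up to 3 reads remain possible, which is a log2 value of 1.56 to 1.69 depending on the library, and this covers counting error only. Of the 50-base words in the canonical *GNAQ* transcript, 4.17% also occur in an annotated transcript of another gene, against 29.41% for *UBB*. The gene that shares the most words with *GNAQ* is the pseudogene *GNAQP1*. How the authors counted reads that match more than 1 gene is not given in the sources used here.

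The measured Gq class mRNA thus came from *GNA11* and *GNA15*, and its make-up differed between the genotypes. Summed over both genes, the normalized reads were 265 and 257 under the control label and 275 and 287 under the GNA13-deficient label. *GNA11* made up 60.4% and 65.1% of this sum under the control label and 97.8% and 98.9% under the GNA13-deficient label. Per kilobase of the longest coding transcript, its share was 45.3% and 50.3% against 96.0% and 97.9%. Within a library, the log2 value of *GNA11* exceeded that of *GNA15* by 0.61 and 0.90 under the control label and by 5.45 and 6.46 under the other.

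**Figure D2:**
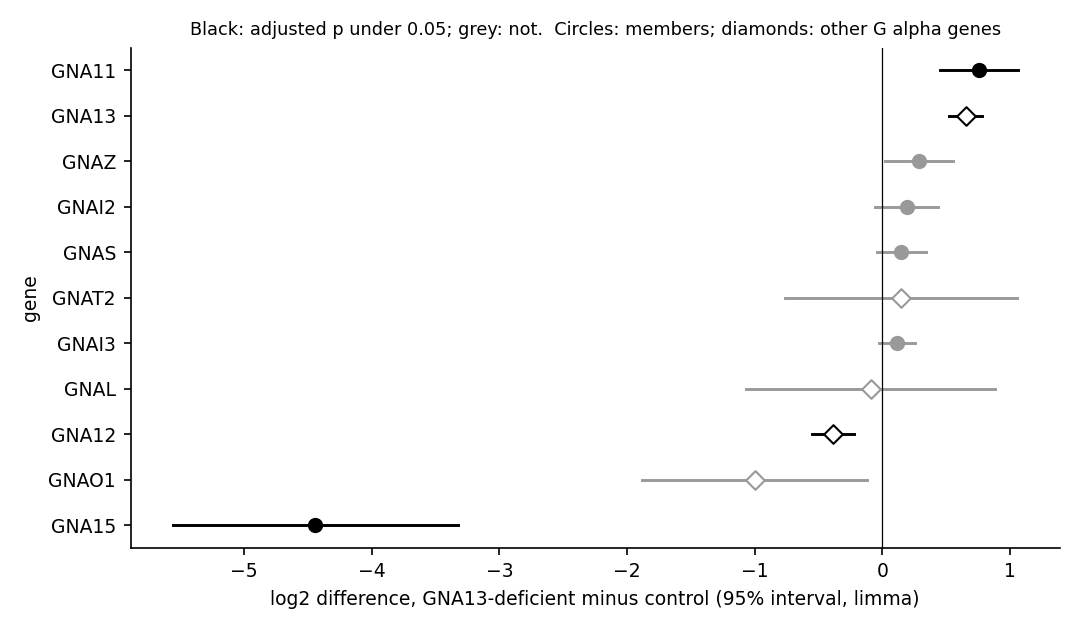
Log2 difference between the libraries labelled GNA13-deficient and control (x axis, point) with its 95% interval from limma (line) for each G alpha gene tested (y axis). Circles are members and diamonds other G alpha genes, black where the adjusted p was under 0.05. *GNA15* stands alone at -4.44, *GNA11* is at 0.76 and the intervals of *GNAI2*, *GNAI3* and *GNAS* include 0.

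Reads of the Gi class came from *GNAI2*, *GNAI3* and *GNAZ*. *GNAI2*, at chr3:50263724-50296794 on the plus strand, had log2 values of 13.49 and 13.69 under the control label and 13.71 and 13.85 under the GNA13-deficient label. The genotypes were separated by only 0.02, which is smaller than the spread within either, and the difference was 0.19 (standard error 0.10, 95% interval -0.06 to 0.44, adjusted p = 0.206 from limma). *GNAI3*, at chr1:110091237-110142817 on the plus strand, had values of 11.80 and 11.85 against 11.90 and 11.97. Its difference was 0.12 (95% interval -0.03 to 0.26, adjusted p = 0.191 from limma). As folds, the intervals run from 0.96 to 1.36 for *GNAI2* and from 0.98 to 1.20 for *GNAI3*.

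*GNAZ* encodes Gαz, a pertussis toxin-insensitive relative known mainly from brain and platelets, and lies at chr22:23412705-23467219 on the plus strand. Its log2 values were 8.52 and 8.72 under the control label and 8.90 and 8.91 under the GNA13-deficient label. The difference was 0.29 (standard error 0.10, 95% interval 0.02 to 0.55, adjusted p = 0.0965 from limma), past 0 before adjustment and not called after it. It was called under quantile normalization (0.41, adjusted p = 0.0492). *RSPH14*, which overlaps it on the other strand and is listed under an older symbol, had log2 values of 2.03 to 3.21. *GNAI1*, at chr7:79397344-79855497 on the plus strand, was listed at 0 in all 4 libraries, and none of its 50-base words occurs in another annotated transcript.

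*GNAS* encodes Gαs and lies at chr20:57414773-57486247 on the plus strand. Its log2 values were 14.74 and 14.80 under the control label and 14.89 and 14.95 under the GNA13-deficient label. The difference was 0.15 (standard error 0.08, 95% interval -0.04 to 0.34, adjusted p = 0.207 from limma). The antisense gene *GNASAS* at the same locus had log2 values of 4.88 to 5.25, from 29 to 37 reads against 26855 to 29528 for *GNAS*. The kit kept strand, but whether the counting used it is not given in the sources used here.

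In *GNAI2*, *GNAI3*, *GNAZ*, *GNAS* and *GNA11* alike, the pair of values under the GNA13-deficient label lay above the control pair, as in 31.3% of all genes tested, and in *GNA15* it lay below, as in 34.0%. The genotypes did not overlap in all 6 members tested and in 65.3% of all genes tested. The first 4 of these differences were small enough to depend on the scaling. With each library centred on its median, which moved the median difference of all genes from -0.03 to 0.18, they became 0.32 to 0.50 and 3 of the 4 were called. Relative to *GAPDH*, a reference gene looked at after the values were seen, they became -0.37 to -0.20 and *GNAI2*, *GNAI3* and *GNAS* were called lower (adjusted p = 0.0354, 0.0249 and 0.0307 from limma), while *GNA11* stayed above 0 at 0.27 without being called (adjusted p = 0.294 from limma) and *GNA15* was at -4.93 and still called. That scaling moved the median difference of all genes to -0.51. It shifts every gene by the same amount, so it cannot change which genes lie above the median. With quantile normalization, *GNAI2* at 0.043 and *GNAI3* at 0.06 lay below the median of 0.066. There *GNAS* at 0.107, *GNAZ* at 0.411 and *GNA11* at 1.028 lay above it. *GAPDH* itself was higher by 0.49 in the libraries labelled GNA13-deficient (adjusted p = 0.0502 from limma).

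Levels of different genes can be compared only per length, and were taken as normalized reads per kilobase of the longest protein-coding transcript. *GNAS* was highest, at 6920 ± 200 (SD, n = 2) under the control label and 7680 ± 229 under the GNA13-deficient label. *GNAI2* followed at 5120 ± 494 and 5840 ± 412. *GNAI3* was more than 10 times lower than *GNAI2*, at 400 ± 9.80 and 433 ± 15.1, and *GNAZ* lower again at 124 ± 12.2 and 152 ± 0.67. *GNA11* was at 39.0 ± 1.26 and 66.0 ± 2.55, and *GNA15* at 42.8 ± 4.77 and 2.06 ± 0.91.

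Over the 4 libraries, *GNA11* and *GNA15* overlapped, while every other pair of neighbours in this order was separated. The place of *GNAS* depended on the length used, because its annotated transcripts differ widely. Per kilobase of merged exons *GNAI2* was higher than *GNAS* (1780 against 1320 over the 4 libraries), and per kilobase of the longest coding sequence likewise (12400 against 9440). With the latter length *GNAI3* stood at 3540, since its long transcript is mostly non-coding.

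**Figure D3:**
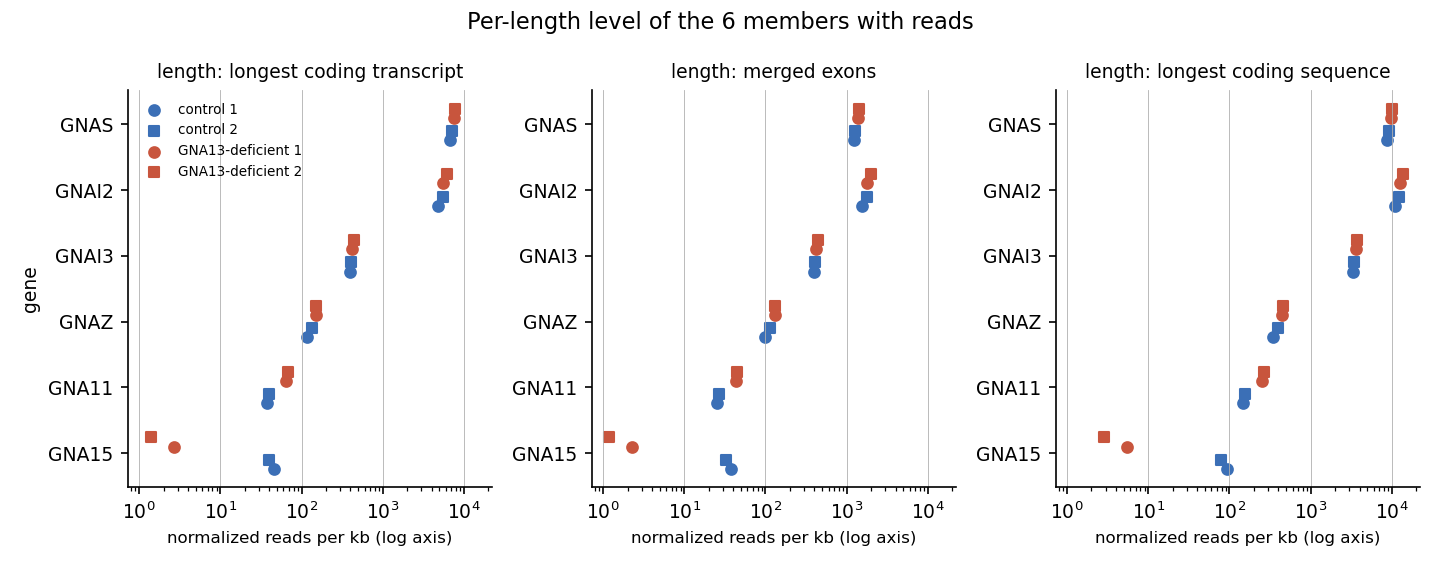
Normalized reads per kilobase (x axis, log scale) of the 6 members with reads (y axis) in each library (blue control, red GNA13-deficient), with 3 definitions of gene length. *GNAS* and *GNAI2* are highest in each panel and change places between panels, and only *GNA15* is displaced by more than 10-fold between genotypes.

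The summed per-length level of all 16 G alpha genes was divided by class. The Gs class took 47.8% ± 1.13 (SD, n = 2) under the control label and 47.1% ± 0.45 under the GNA13-deficient label, and the Gi class took 39.0% ± 1.51 and 39.5% ± 1.04. The G12/13 class, which includes the mRNA of the sgRNA target *GNA13*, took 12.7% ± 0.33 and 13.0% ± 0.58. With this length, these 3 shares overlapped between genotypes. The shares depended on the length: under the control label the Gs class took 24.9% with merged exons, 27.1% with the longest coding sequence and 65.3% with the canonical transcript, and the G12/13 class 30.6%, 25.8% and 7.95%, and the Gi class was the largest with merged exons and with the longest coding sequence. With merged exons and with the longest coding sequence the Gs and G12/13 shares did not overlap between genotypes. With the longest coding sequence the Gs class took 27.5% and 26.7% under the control label against at most 26.2%, and the G12/13 class 26.3% and 25.2% against 28.4% and 26.9%. The Gq class took 0.60% and 0.53% under the control label and 0.42% and 0.41% under the GNA13-deficient label, with no overlap, but with the longest coding sequence as length its shares overlapped, at 0.76% and 0.69% against 0.69% and 0.68%. With 2 libraries per genotype, an exact two-sided permutation test cannot go below p = 0.333, so none was run on these shares.

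Of the 8 other G alpha genes, *GNA12* and *GNA13* were the only ones with more than 30 reads in a library. *GNA12*, the partner of Gα13 in its class, had log2 values of 11.94 and 12.06 under the control label and 11.63 and 11.59 under the GNA13-deficient label, a fall of 0.39 (standard error 0.06, adjusted p = 0.0123 from limma). *GNA13* rose by 0.65 (standard error 0.05, adjusted p = 0.00214 from limma). *GNAT2*, the cone transducin, had values of 4.19 to 4.74 and *GNAL*, the olfactory Gs class gene, 1.98 to 2.35. *GNAO1* had 2 reads in each library labelled control and was at 0 in the others, *GNA14* had 1 read in 1 library, and *GNAT1* and *GNAT3* were listed at 0 throughout. In all, 7 of the 16 G alpha genes had fewer than 10 reads in every library.

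*GNA11* and *GNA15* are neighbours in the genome, in the same orientation, with 12034 bases between them. *GNA11* rose and *GNA15* fell, and no other protein-coding gene with a start site within 150 kb of that of *GNA15* was called. The genes around them were named after their values were seen. *TLE5*, a Groucho family corepressor listed under an older symbol, lies upstream of *GNA11* and had log2 values of 13.03 and 12.96 under the control label and 13.03 and 13.12 under the GNA13-deficient label. *S1PR4*, a sphingosine 1-phosphate receptor of lymphocytes, begins 36.3 kb beyond the start of *GNA15* and had values of 10.61 and 10.68 against 10.41 and 10.48 (difference -0.20, adjusted p = 0.0676 from limma). *NCLN* had values of 11.16 to 11.36, and *TLE2* and *CELF5* had at most 21 reads.

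**Figure D4:**
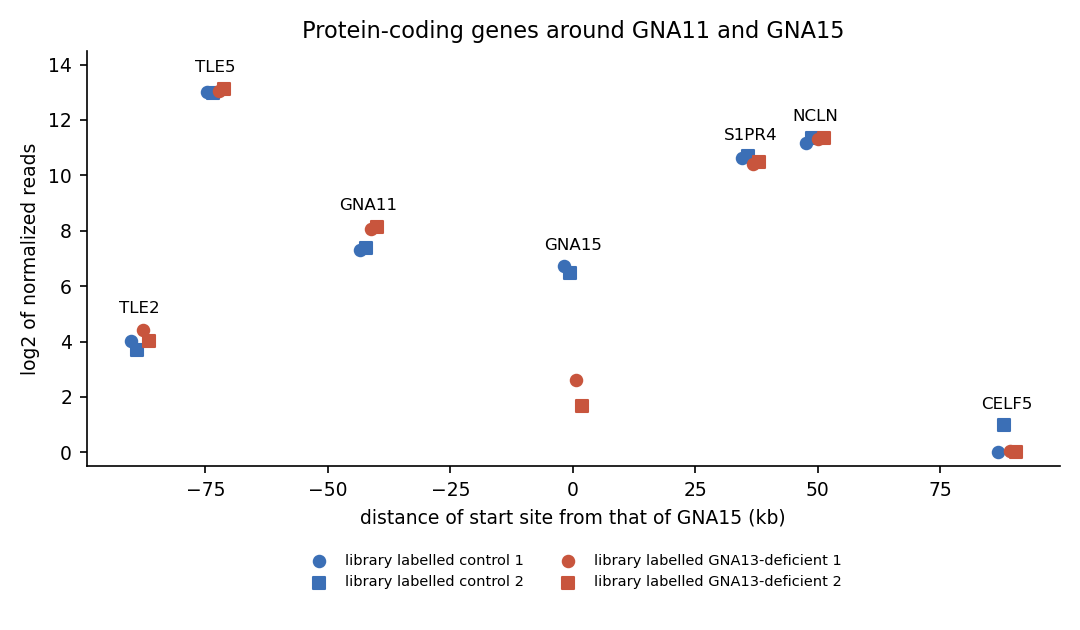
Deposited log2 values (y axis) of protein-coding genes by the distance of their start site from that of *GNA15* in kilobases (x axis), one point per library, blue for control and red for GNA13-deficient. *GNA11* and *GNA15* move in opposite directions, while *TLE5*, *S1PR4* and *NCLN* differ by at most 0.20 between genotype means.

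Genes with patterns like those of these members over the 4 libraries were sought by the Euclidean distance between log2 values centred per gene. The search covered the 8473 genes with a mean at or above the median. Both members lie below that median, so genes at their own level were not searched. Nearest to *GNA15* among those searched were *AKAP12*, a scaffold for protein kinases A and C, at a distance of 0.79, *DAPL1* at 0.84 and *AMOTL1* at 0.87. *AKAP12* went from 11.03 and 11.13 under the control label to 6.97 and 6.99 under the GNA13-deficient label. Nearest to *GNA11* were *RANBP1*, a regulator of the Ran GTPase, at 0.03, the cell cycle kinase *CDK2* at 0.03 and the sterol synthesis enzyme gene *SC4MOL* at 0.03. *CDK2* went from 11.59 and 11.66 to 12.31 and 12.41.

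Partners and effectors of the members were counted in lists, and each count can be read against the 13.1% of all genes called higher and the 16.6% called lower. Among the G beta subunits, *GNB5* was called higher and *GNB4* lower of 5 tested, with a list median of -0.07. *GNB4* fell by 0.54 (limma, standard error 0.05 and adjusted p = 0.00329), and *GNB5*, which pairs with RGS proteins, rose by 0.30. *GNB1* had log2 values of 14.42 and 14.47 against 14.29 and 14.31 and was not called. Of 9 G gamma genes tested, 2 were higher and 2 lower (median -0.12). *GNG11* went from 9.10 and 9.48 to 6.06 and 6.39, *GNG4* from 6.20 and 6.33 to 8.38 and 8.18, and *GNG13*, with at most 13 reads, from 3.73 and 3.15 to 2.04 and 1.69. The other gene called higher, named like those that follow the leading 3 of each list after its value was seen, was *GNG5*, with a difference of 0.45.

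Of 11 chaperones and non-receptor regulators of G alpha, 3 were higher and 3 lower (median -0.20). *CCDC88C*, which encodes the exchange factor Daple, fell by 0.87 (limma, standard error 0.07 and adjusted p = 0.0021) and *GPSM3*, which binds Gαi, fell by 0.82. *RIC8B*, a chaperone of Gαs, fell by 0.77. *GPSM1* and *GPSM2*, which hold Gαi in its GDP form, and *NUCB2* were the genes called higher, with differences of 0.51 to 0.75. *RIC8A*, which folds the Gi, Gq and G12/13 classes, had log2 values of 11.96 and 11.98 against 12.07 and 12.16 and was not called.

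The list of Gq effectors had 8 genes tested, of which 5 were lower and 1 higher, with a median of -0.47. *PLCB2*, the phospholipase Cβ of hematopoietic cells, went from 9.15 and 9.11 under the control label to 8.19 and 8.04 under the GNA13-deficient label. *PLCB4* went the other way, from 6.94 and 6.61 to 7.72 and 7.80. *TRIO*, whose product Gαq binds, fell by 0.76 (limma, standard error 0.12 and adjusted p = 0.0114). The remaining genes called lower, named after their values were seen, were *ITPR1*, *ITPR2* and *ITPR3*, the IP3 receptors that release calcium downstream of phospholipase C, with differences of -0.66 to -0.35. *PLCB3*, with a difference of -0.18, was not called, and *PLCB1* had at most 1 read. With quantile normalization and voom weights the list also had 5 genes lower and 1 higher, with median centring 4 and 1, and relative to *GAPDH* 6 and 0.

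**Figure D5:**
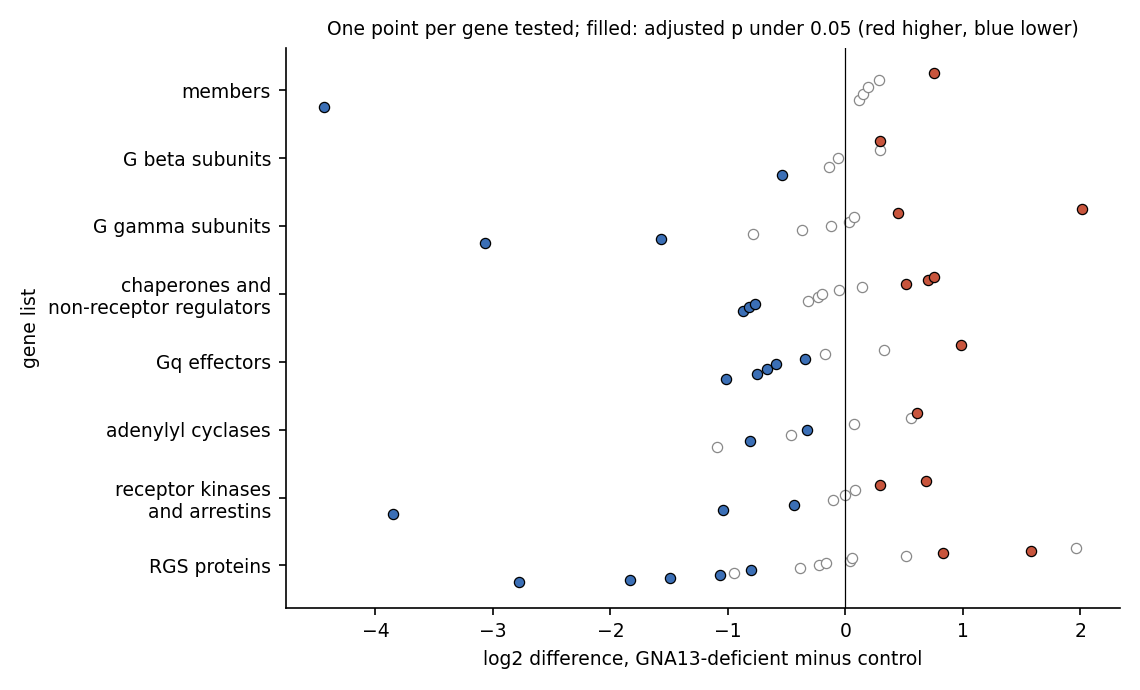
Log2 difference between the libraries labelled GNA13-deficient and control (x axis) of each gene tested in the members and in 7 lists of partners and effectors (y axis), one point per gene, filled red where called higher and blue where called lower. Of the 8 Gq effectors, 5 are filled blue and 1 red.

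Adenylyl cyclases, most of which are effectors of Gαs and the Gi class, had 7 genes tested. Of these, *ADCY3* was higher and *ADCY7* and *ADCY9* lower (median -0.33). *ADCY3* rose by 0.61, *ADCY9* fell by 0.81 and *ADCY7*, the form that prevails in many blood cells, fell by 0.33. Of 8 receptor kinases and arrestins tested, 2 were higher and 3 lower (median -0.05). *ARRB1*, which encodes β-arrestin 1, went from 8.29 and 8.39 to 4.62 and 4.35, and *ARRB2*, which encodes β-arrestin 2, from 10.02 and 9.98 to 10.70 and 10.68. *GRK5* fell by 1.04 and *GRK2*, listed under an older symbol, by 0.44, while *GRK6* rose by 0.30.

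The RGS proteins, most of which speed GTP hydrolysis on the Gi and Gq classes, had 15 genes tested, of which 2 were higher and 5 lower (median -0.22). *RGS13*, with 12 and 13 reads against 3 and 1, fell by 2.78 (limma, standard error 0.60 and adjusted p = 0.0271). *RGS1*, an inhibitor of chemokine receptor signaling in germinal center B cells, went from 9.41 and 9.14 to 7.28 and 7.61. *RGS5* went from 5.67 and 5.68 to 7.19 and 7.32. *RGS2*, *RGS3* and *RGS16* were also called lower, with differences of -1.49 to -0.81, and *RGS19* higher at 0.83. The medians of the G beta, G gamma, receptor kinase and RGS lists and that of the chaperones changed sign under at least 1 scaling and are given as values only. The human gene *TBXA2R* had log2 values of 4.35 and 5.30 under the control label and 3.74 and 4.11 under the GNA13-deficient label. These came from 13 to 40 reads, and the gene was not called (adjusted p = 0.201 from limma).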

How the data were processed

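RNA was sequenced from 4 libraries, 2 per genotype. Per the study's methods, STAR alignment to hg19 was followed by normalization, and the authors deposited the result as log2 values per gene. HTSeq is named in the submitters' processing notes. The annotation and the method of normalization are not given in the sources used here. A deposited row of total mapped reads was used only for depth. The values of low genes stepped in whole reads, which gave the count of reads behind each value: 100% of values of up to 400 reads came out whole in every library.

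The members and all lists were chosen with earlier results of these data known. Genes above 0 in at least 2 libraries were compared on the deposited log2 values with limma 3.58.1 (R 4.3.3). The model had genotype alone, which leaves 2 residual degrees of freedom, and eBayes used the trend of variance on the mean. Adjusted p values follow Benjamini and Hochberg over all genes tested. The pipeline was run on simulated data with libraries drawn independently, as a check of the code only. Named were the 8 members, the other G alpha genes, *GNA13* and *TBXA2R*, and the 3 largest differences called in each list. The 3 genes most like *GNA11* and *GNA15* among those with a mean at or above the median were also named. Further list genes in the text were picked with their values in view. *ARHGEF25* and *TRAC* were not found among the symbols, and *GRK2* and *GRK3* were found under older ones. Positions, lengths and sequences are from GENCODE v44lift37 (GRCh37), with neighbours also matched by Entrez ID.

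Alternatives were a filter at the median, no filter, pseudocounts of 1 and 10, quantile normalization, median centring, a replicate block, no variance trend, a robust prior, leaving out each library, other gene lengths and shares without *GNAS*. Voom weights on the recovered reads, a filter of 10 reads in at least 2 libraries, scaling to *GAPDH* and the canonical transcript as length were added after the data were seen.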

Additional observations from a re-analysis of the deposited data

How the results depend on the processing

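Of the 6 members tested, 2 were called as reported, and the count stayed at 2 with pseudocounts of 1 and 10, without the variance trend, with a robust prior, with voom weights and with a filter of 10 reads, and was 3 with quantile normalization. It was 1 without a filter (*GNA15* missed, adjusted p = 0.0561), 5 with median centring (*GNAI3*, *GNAZ* and *GNAS* added), and 4 with a replicate block (*GNAI2* added at adjusted p = 0.0163 and *GNAS* at 0.0338). With the filter at the median it was 0 of 4, because *GNA11* and *GNA15* lie below that median and were not tested there. The filters, the replicate block, no variance trend and the robust prior leave each estimate as it is, so they could not alter a direction. Under the other fits, directions held for all 6 members except with scaling to *GAPDH*, which was added after the data were seen. That scaling shifts the median of all genes from -0.03 to -0.51. There *GNAI2* was at -0.296, *GNAI3* at -0.371, *GNAZ* at -0.20 and *GNAS* at -0.337, 4 members were called (*GNAI2*, *GNAI3*, *GNAS* and *GNA15*), and over all genes there were 7618 calls, 319 higher and 7299 lower. *GNA15* was smallest at -2.87 with a pseudocount of 10, by construction of the larger pseudocount.

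Over all genes, 5037 calls became 1999 without a filter (1885 shared) and 2718 without the variance trend (2520 shared), and the cause was not tested. Quantile normalization gave 2705 higher and 2542 lower calls. Median centring turned 2218 higher and 2819 lower calls into 4311 and 1924. With each library left out, limma (1 residual degree of freedom, the lone library assumed to vary like the others) called 0 genes and 0 members, with 5257 to 5600 genes and 2 to 3 members at an unadjusted p under 0.05. *GNA11* then ranged from 0.72 to 0.80 and *GNA15* from -4.91 to -3.98.

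The labels number the libraries 1 and 2 in each genotype without saying that a number marks a shared batch, and deviations of same-numbered libraries correlated at 0.453 over 8473 genes. The replicate block raised the calls to 6616.

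Per-length levels moved with the length by construction. With merged exons they were 1780 for *GNAI2*, 119 for *GNAZ*, 35.0 for *GNA11* and 1320 for *GNAS*. With the longest coding sequence they were 12400 for *GNAI2*, 3540 for *GNAI3*, 410 for *GNAZ*, 204 for *GNA11*, 45.3 for *GNA15* and 9440 for *GNAS*, and with the canonical transcript 15900 for *GNAS*. The difference in the Gq class share between genotypes, -0.147 percentage points, was -0.427 with merged exons, -0.0354 with the longest coding sequence, -0.091 with the canonical transcript and -0.293 without *GNAS*. That of the G12/13 class, 0.385, was 1.90 with merged exons and 1.85 with the longest coding sequence.

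Depth limits *GNA15* most, since 6 and 3 reads stand behind its lower values. The reason for the listed 0 of *GNAI1* and *GNAQ* was not tested.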
